A study of Rattus norvegicus with 35 samples.

Results

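Cultures of cardiac fibroblasts were exposed to cyclic stretch, the mechanical stress (MS) arm of a comparison of stressors, and their transcripts were compared with those of unstretched cultures. The comparison holds 6 of the 35 arrays of the series: 3 arrays of stretched cultures and 3 of controls on the same collagen I-coated flexible plates, chosen by these labels and joined into 3 pairs by the experiment number in the sample titles. The cells were fibroblasts from the ventricles of neonatal rats, kept apart from cardiomyocytes by letting them attach first, passaged and held in low serum. Treated cultures were stretched equiaxially for 24 h on a Flexcell device and harvested at the end, while control plates shared the incubator but received no stretch. For comparison, 3 other sets of 3 treated and 3 control arrays are used: CM-enriched cultures (CM, cardiomyocytes) under the same stretch and on the same plates, cultures of fibroblasts (FB) 24 h after 8.5 Gy of X-rays (ionising radiation, IR), and cultures of fibroblasts 24 h after 10 J/m2 of UVC, the last 2 with sham-irradiated controls. By the Methods, the stretched CM-enriched cultures were not purified further and held a large share of non-myocytes, and the fibroblast cultures held a few myocytes. RNA was measured on Affymetrix rat genome arrays (RG U34, set A), 1 array a sample, and the Methods describe the experiments as independent.

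Cardiac fibroblasts make and remodel the collagen network that ties the myocardium together. Load on that network reaches the cell through integrins and focal adhesions, and from there runs through actin, through MAP kinases to the immediate early genes, and through secreted factors such as TGF-beta. Prolonged load is known to turn fibroblasts into myofibroblasts, which carry smooth muscle actin and deposit matrix.

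No probe-set passed the test after 24 h of stretch. Of 8740 probe-sets tested with limma, 0 were higher and 0 lower at a Benjamini-Hochberg adjusted p of 0.05 (0% either way), nor at the stricter 0.005 of the study. The study applied that level to another test, a linear model of probe signals that was not run here. With it, the study reported changed genes in stretched fibroblasts, the majority of them lower. At an unadjusted p under 0.05, 248 were higher (2.84% of those tested) and 220 lower (2.52%), and the smallest adjusted p was 0.168. Counted as genes, each read through its brightest probe-set, these were 130 higher (2.74%) and 118 lower (2.49%) of 4736. The count of 0 depends on the block for the experiment and on the pairs used: without that block 1 low probe-set, of Zfx, passed as higher (adjusted p = 0.00727), and with 1 pair left out 4 to 7 passed, none of them bright in the sense given below. With hybridisation time as the block 27 passed, and with pair 3 alone 39, but neither setting holds a second control array of the same time. With 3 pairs, this does not show that the cultures were alike. Of the 4736 genes, 3865 (81.6%) had a 95% interval that stayed within a 2-fold change either way, and 2391 (50.5%) within 1.5-fold. These shares include genes at the floor on all 6 arrays, whose change is near 0 by construction, so they bound no change for such genes. In what follows, changes are on the log2 scale, stretched minus control, and array values are normalised intensities with a floor of 6.88.

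The changes of the 3 pairs were nearly uncorrelated. Over all probe-sets the correlation of the changes was 0.00098 between pairs 1 and 2, -0.030 between pairs 1 and 3, and 0.023 between pairs 2 and 3. Among the 4808 probe-sets that lay above the 40th percentile of all values (24.5) on every array of at least 1 group, called bright here, it was 0.064, 0.026 and 0.060. These correlations are across probe-sets, which are not independent replicates, and arrays of both groups share 1 normalization. Low correlations over all probe-sets were not particular to this comparison. They were -0.0039, 0.013 and 0.082 in CM-enriched cultures after stretch, and 0.097, 0.048 and -0.020 in cultures of fibroblasts after X-rays. In cultures of fibroblasts after UVC, processed in the same way, the same correlations lay between 0.62 and 0.68. Among the 4808 bright probe-sets, chosen on the fibroblast MS arrays, they were -0.052, 0.013 and 0.143 in CM-enriched cultures after stretch. They were 0.256, 0.079 and -0.040 in cultures of fibroblasts after X-rays, and 0.74 to 0.82 after UVC. The fitted change exceeded 2-fold for 79 probe-sets after stretch, 17 of them bright. It did so for 54 in CM-enriched cultures after stretch, 87 after X-rays and 968 after UVC.

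**Figure D1:**
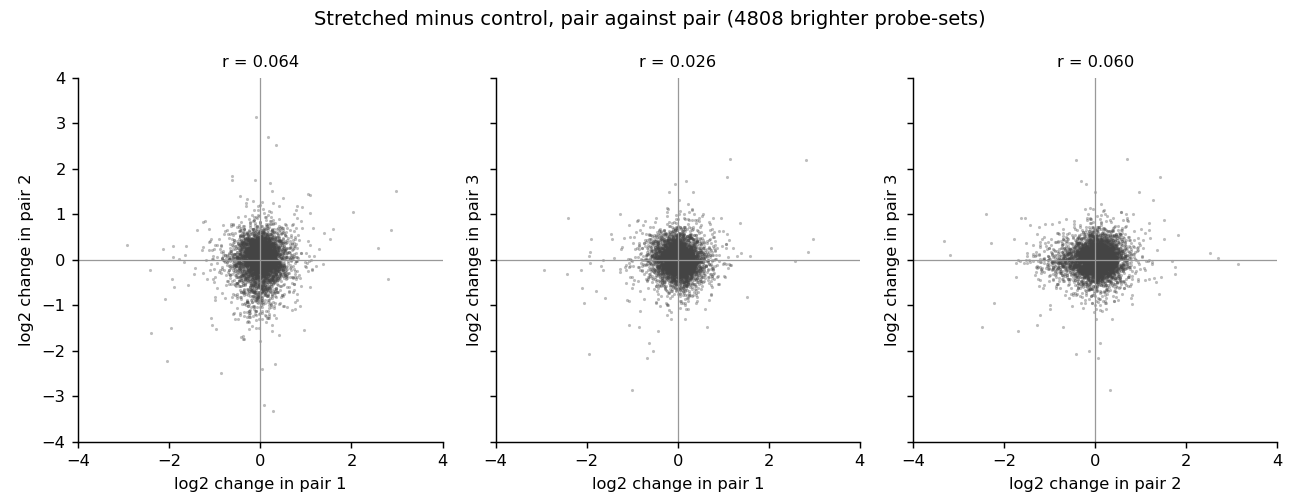
Each point is 1 of 4808 bright probe-sets, with its log2 change (stretched minus control) in one pair on the x axis and in another pair on the y axis. The clouds are round about 0, with correlations of 0.064, 0.026 and 0.060, and pair 2 has a tail of lower values.

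All 6 arrays were close to each other. Spearman correlations lay between 0.957 and 0.966 within the controls and between 0.955 and 0.963 within the stretched arrays. They were 0.968 to 0.972 between the arrays of a pair, above the 0.954 to 0.966 between arrays of different numbers and groups. The share of probe-sets at the floor was 20.9% to 24.7% per array. Stretched array 2 stood apart on 1 class of probes: among probe-sets with a mean level over 100 named after ESTs of the ranges AA799 to AA801 and AA891 to AA894, 20.0% of 619 were lower by more than 0.5 in pair 2, against 3.69% of 2360 others. In pair 1 these shares were 3.39% and 1.99%, and in pair 3 they were 3.23% and 1.78%. The class was chosen after its values were seen. Only pair 3 is known from the scan records to share a hybridisation time: control 2 has another time than the stretched arrays, and control 1 has no record.

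Fibroblast markers were high in both kinds of culture, so their levels alone are a weak check of the label. The summed level of the 17 markers ran from 59100 to 60160 in controls and from 58960 to 62190 after stretch. On the arrays of the CM-enriched MS cultures it ran from 49300 to 55840. Col1a1, a chain of type I collagen, read 8209, 7111 and 8026 in controls and 7364, 8756 and 8209 after stretch. Fn1, fibronectin, read 5595, 5979 and 5482 in controls and 5652, 5758 and 5787 after stretch. The groups overlapped for both, and all 17 fibroblast markers measured were bright. Of these, 2 were higher in 3 of 3 pairs (Pdgfrb and Sparc) and 2 lower (Lum and Bgn).

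Transcripts of cardiomyocytes were present as well, and differed far more between experiments than between stretched and control. Actc1, cardiac actin, read 2323, 5828 and 627.4 in controls 1 to 3 and 1852, 5787 and 560.5 in the stretched arrays. Myh7, the slow myosin heavy chain, read 552.2, 3011 and 173.3 in controls and 595.4, 3118 and 199 after stretch. Of 28 myocyte markers, 25 were highest in experiment 2 in both groups, and 21 lay on all FB controls below every array of the CM-enriched MS cultures. The summed level of the markers ran from 5925 to 34100 in controls and from 5671 to 36210 after stretch. On the arrays of the CM-enriched MS cultures it ran from 54230 to 66630, so the fibroblast cultures differed widely in how near they came to that level. In bulk RNA, fewer myocytes and less RNA per myocyte cannot be told apart. Within pairs, 4 myocyte markers were higher in 3 of 3 (Tnni1, Myl4, Fabp3 and Myh7) and 3 lower (Csrp3, Actc1 and Atp2a2), with a list median of -0.06.

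**Figure D2:**
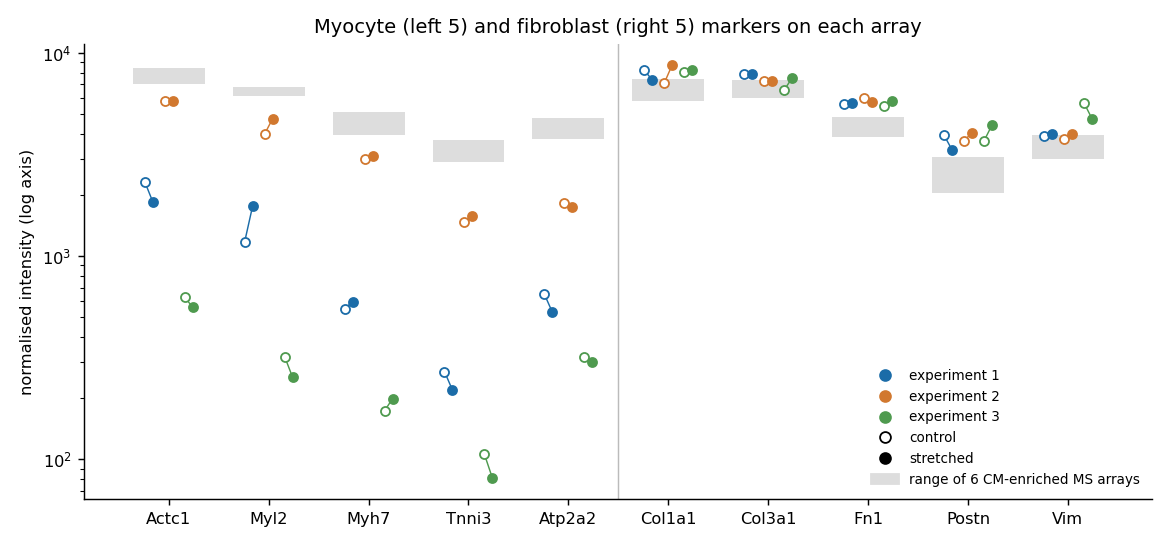
Normalised intensity (log axis) of 5 myocyte and 5 fibroblast markers on each of the 6 arrays, open points for controls, filled for stretched, joined within an experiment; grey boxes span the 6 arrays of CM-enriched MS cultures. Myocyte markers are highest in experiment 2 and lowest in experiment 3 in both groups, while fibroblast markers lie close together.

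Markers of other cell types were read in the same way. Summed levels of 10 endothelial markers ran from 454 to 525.4 in controls and from 347 to 503.3 after stretch, and 2 of them (Nos3 and Thbd) were lower in 3 of 3 pairs. For 22 macrophage and leukocyte markers the sums were 524 to 647.3 and 579.3 to 600.9, with 4 higher and 1 lower. Pecam1, a defining endothelial gene, read between 8.54 and 27.1, and Sele, an endothelial selectin, was at the floor on all 6 arrays. The 7 Schwann and nerve markers summed to 2898 to 3034 in controls and 2640 to 3145 after stretch, most of it Pmp22, which fibroblasts also express. The 7 smooth muscle markers summed to 5201 to 7803 in controls and 5493 to 8498 after stretch, nearly all of it Acta2 and Tagln, which myofibroblasts also express, and 2 were higher (Acta2 and Actg2) and 1 lower (Cnn1) in 3 of 3 pairs. The 6 erythroid and 4 mesothelial and epithelial markers had none in either direction.

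Direction alone was shared by all 3 pairs for 824 probe-sets higher (9.43%) and 757 lower (8.66%). Per gene these were 469 higher (9.9%) and 420 lower (8.87%). The 3 stretched arrays all lay above the 3 controls for 238 probe-sets (2.72%) and all below for 212 (2.43%). Probe-sets of the EST class made up 14.6% of those tested, 8.13% of the 824 and 25.6% of the 757.

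The 12 bright probe-sets higher and the 12 lower in 3 of 3 pairs with the smallest unadjusted p and a single gene symbol are described first. Since direction and p chose them, their values are a description. Among the higher ones, Vps4a, an ATPase that disassembles ESCRT-III in membrane scission, had the smallest p, with 452.4, 370.1 and 298.1 in controls and 561.8, 521.1 and 353.2 in stretched arrays. The groups overlapped, and the change was 0.35 (SE 0.06, adjusted p = 0.178). Ndufb2, a subunit of respiratory complex I, read 927.4, 847.2 and 521.7 in controls and 1195, 1351 and 1041 after stretch, so that all stretched arrays lay above all controls (change 0.68, SE 0.17, adjusted p = 0.592).

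Ergic1, which cycles between endoplasmic reticulum and Golgi, read 144.6, 153.3 and 92.7 in controls and 170.9, 226.6 and 190.6 after stretch (change 0.62, SE 0.15, adjusted p = 0.592, and 0.40 without pair 3). A second, brighter probe-set of Ergic1, of the EST class, went the other way in 3 of 3 pairs (change -0.34, SE 0.13). No direction is given for the gene. Fev, a transcription factor of the ETS family, was low throughout, with 16.6, 19.6 and 39.9 in controls and 68.4, 40.5 and 47.6 after stretch (change 1.11, SE 0.28, adjusted p = 0.592). Stretched array 1 was the highest, and without pair 1 the change was 0.65.

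Hspe1, the mitochondrial chaperonin HSP10, rested on small and even differences, from 1655, 1735 and 1852 in controls to 1867, 2015 and 2008 after stretch (change 0.17, SE 0.04, adjusted p = 0.681). Its other probe-set had a change of 0.05 with mixed directions. Hnrnpab, an RNA-binding protein, read 1305, 1258 and 1385 in controls and 1484, 1533 and 1623 after stretch (change 0.23, SE 0.07, adjusted p = 0.780). Gnas, the stimulatory G protein alpha subunit, had a change of 0.22 (SE 0.07), and its 3 other probe-sets had mixed directions. Ldb3, a Z-disc protein of striated muscle, read 30.7, 74.0 and 18.7 in controls and 52.8, 119.7 and 35.4 after stretch (change 0.80, SE 0.23), while its 2 other probe-sets did not share a direction over pairs. The remaining higher genes were Rab4b, a GTPase of endosome recycling (0.38), Uck2, a uridine-cytidine kinase (0.36), Pafah1b1, a dynein regulator (0.20, and 0.13 without pair 3), and Slc8a2, a sodium-calcium exchanger (0.57, and 0.33 without pair 2). The second probe-set of Rab4b (0.54) and the other 2 of Pafah1b1 (0.11 and 0.17) were higher in 3 of 3 pairs as well.

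Among the lower genes, Mtch2, a protein of the outer mitochondrial membrane, had the smallest p, with 1187, 1165 and 1204 in controls and 1043, 640.8 and 970.9 after stretch (change -0.45, SE 0.10, adjusted p = 0.533). Of the 12 lower genes 8 belong to the EST class, and stretched array 2 was the lowest array in each of these 8. Of the 12 higher genes 2 belong to it. Rab11b, a GTPase of recycling endosomes, read 890, 872.1 and 738.5 in controls and 793.2, 503.2 and 533 after stretch (change -0.48, SE 0.11, adjusted p = 0.592). Without pair 2 the change of Mtch2 was -0.25 and that of Rab11b -0.32, with adjusted p of 0.686 and 0.779. Of the other 2 probe-sets of Mtch2, 1 was lower in 3 of 3 pairs (-0.22) and 1 mixed (-0.18). Of those of Rab11b, 1 of the EST class was lower (-0.41) and 1 outside it mixed (-0.06).

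The other lower genes of the EST class were Zfp36, described with the immediate early genes, Chmp1a of the ESCRT machinery (-0.55), Mrto4, a factor of ribosome assembly (-0.38), mrpl11, a mitochondrial ribosomal protein (-0.44), Psmb5, a proteasome subunit (-0.28), and Tnfrsf21, a death receptor (-0.40). Without pair 2 these changes were -0.25 for Chmp1a, -0.18 for Mrto4, -0.23 for mrpl11, -0.18 for Psmb5 and -0.33 for Tnfrsf21. Both other probe-sets of Psmb5, brighter and outside the EST class, had positive changes (0.04 with mixed directions and 0.05 in 3 of 3 pairs), so that no direction is given for Psmb5. The second probe-sets of Chmp1a (-0.07) and Tnfrsf21 (-0.06) had mixed directions.

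Of the lower genes outside the EST class, Gstk1, a glutathione transferase, read 157.2, 88.0 and 161.6 in controls and 37.8, 18.9 and 83.1 after stretch, with no overlap (change -1.75, SE 0.44, adjusted p = 0.592). Its second probe-set had a change of -0.16 with mixed directions. Itgb7, an integrin subunit best known from lymphocytes, read 33.9, 38.7 and 29.9 in controls and 18.7, 6.88 and 10.8 after stretch (change -1.61, SE 0.42, adjusted p = 0.681). Its brighter probe-set was lower in 3 of 3 pairs by less (change -0.22, SE 0.37, adjusted p = 1). Adcy5, an adenylyl cyclase, read 58.1, 55.9 and 67.7 in controls and 19.2, 37.7 and 38.0 after stretch (change -0.999, SE 0.27, adjusted p = 0.681). Of the other 2 probe-sets of Adcy5, 1 had a change of -0.69 that rests on control 1 alone, with 5 of 6 arrays at the floor. The other had 0.32 with mixed directions. Cox4i1, a subunit of cytochrome c oxidase, had a change of -0.30 (SE 0.09, and -0.16 without pair 2) on the probe-set chosen, and 0.0057 and 0.06 on the other 2.

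**Figure D3:**
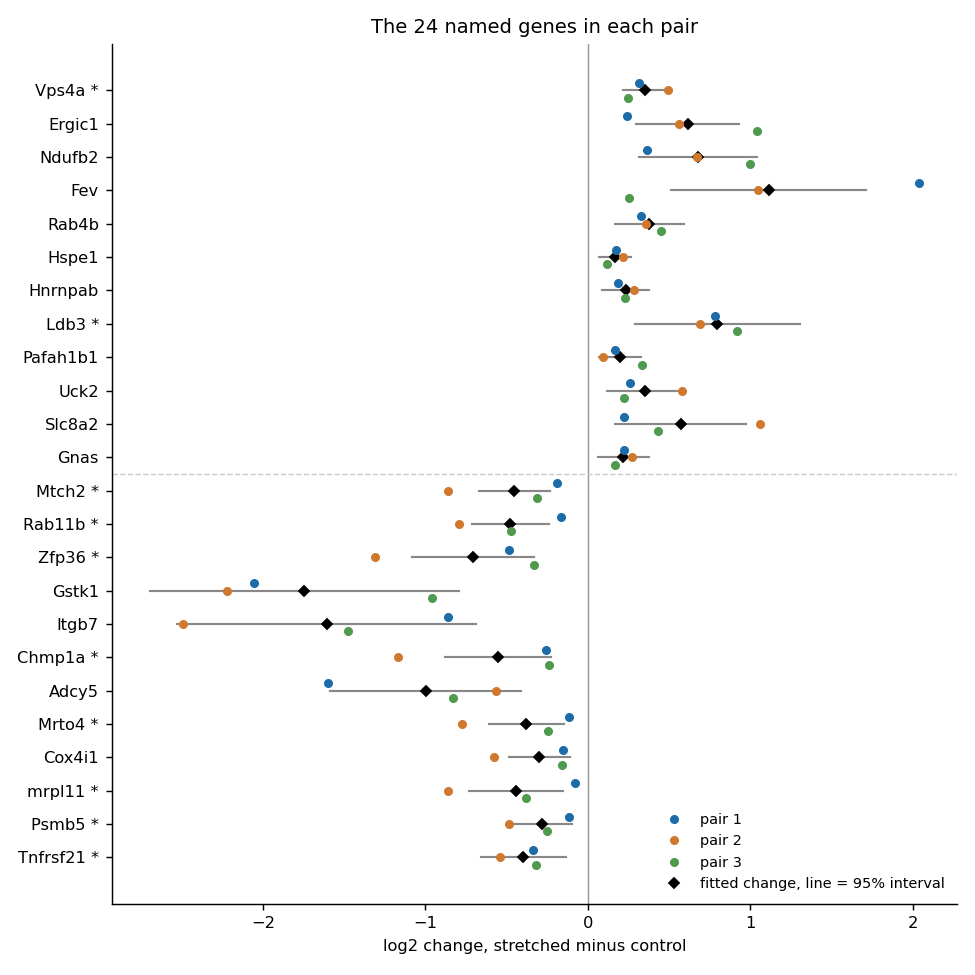
Log2 change (stretched minus control) of the 12 higher and 12 lower genes in pair 1, 2 and 3 (coloured points), with the fitted change (diamond) and its 95% interval; an asterisk marks the EST class. Pair 2 is the farthest from 0 in every lower gene with an asterisk.

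Immediate early genes are transcribed within minutes of a stimulus and serve as a readout of MAP kinase and SRF signalling. Of 32 such genes and Id factors, 0 were higher and 7 lower in 3 of 3 pairs, beside 9.9% and 8.87% of all genes, and none passed the test. The list median was -0.0027, and 17 members had a negative and 14 a positive change. Egr1, a zinc-finger factor of this class, read 2264, 1041 and 1028 in controls and 1236, 854.2 and 748 after stretch. Control 1 was far above the other arrays, and the groups overlapped (change -0.54, SE 0.18, adjusted p = 0.857). A second probe-set of Egr1 had a change of -0.58 in 3 of 3 pairs, and the other 2 had mixed directions.

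Zfp36, tristetraprolin, which destabilises cytokine mRNAs, read 606.9, 469.5 and 431.2 in controls and 434.2, 189.3 and 343.1 after stretch (change -0.71, SE 0.17, adjusted p = 0.592). It belongs to the EST class, and without pair 2 its change was -0.41 (adjusted p = 0.869). Its second probe-set, outside that class, had a change of -0.29 with mixed directions. Fos read 461.1, 168.6 and 222.3 in controls and 302.1, 143.2 and 179 after stretch (change -0.39, SE 0.19). Control 1 was again the highest array, as it was for Junb, with 485.1, 197.6 and 238.1 in controls against 272.8, 223.9 and 204.6. The others lower in 3 of 3 pairs were Dusp6 (-0.32), Cebpb (-0.22), Mafk (-0.13) and Fosl2 (-0.42). In CM-enriched cultures, which have control arrays of their own, 6 members were lower and 1 higher in 3 of 3 pairs. There, 11.7% of all genes were lower and 11.3% higher. Of the members, 3 (Zfp36, Egr1 and Cebpb) were lower in both populations. The second probe-set of Zfp36 had mixed directions in the CM-enriched pairs as well.

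**Figure D4:**
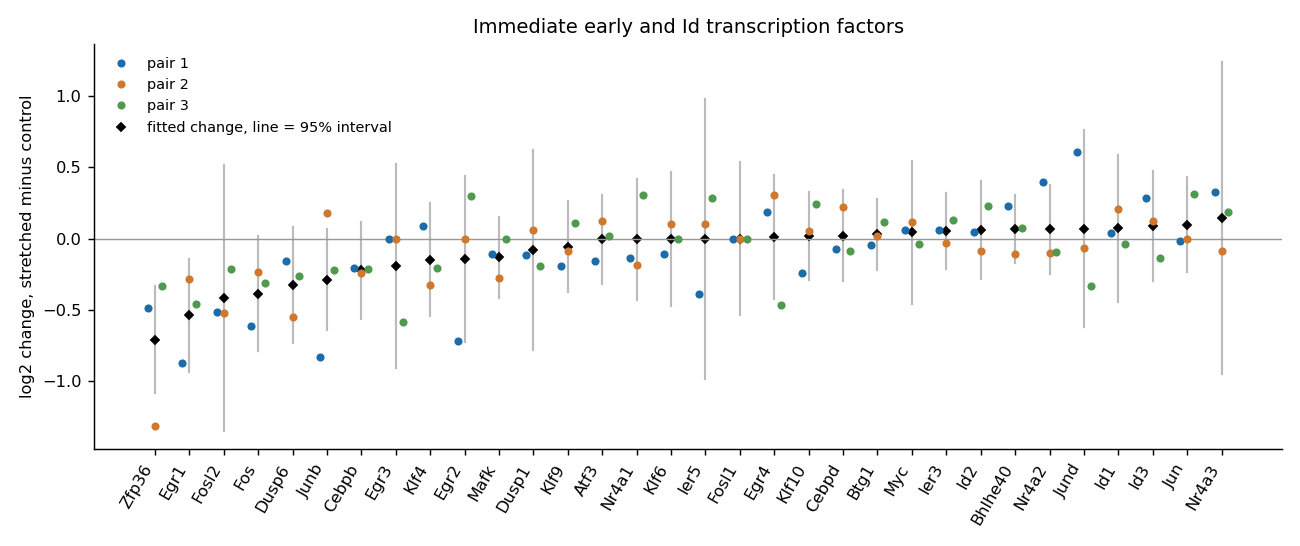
Log2 change (stretched minus control) of 32 immediate early and Id genes in each pair (coloured points), with the fitted change (diamond) and its 95% interval, ordered by the fitted change. The intervals of Zfp36 and Egr1 lie below 0 without adjustment, and all others cross it.

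Promoters of the 24 genes were searched for the sites of factors that answer to load. RefSeq promoters (GRCr8, 250 bases before to 50 after the start) were found for 11 of the 12 higher and all 12 lower genes. Each motif was read on both strands. The AP-1 site TGANTCA, bound by Fos and Jun proteins, lay in 2 higher and 0 lower promoters, and in 7.33% of all 27457. The TEAD site GGAATG, used by YAP and TAZ, lay in 0 higher and 2 lower promoters (Rab11b and mrpl11), and in 13.9% of all. The CArG box, bound by SRF, lay in 1 of each direction and in 1.64% of all. The AP-1 and CArG matches, in 3 genes, are shown because these factors act downstream of MAP kinases and actin, with the motif in capitals and 10 bases on each side.
Zfp36, CArG box, chr1:92799121-92799150, minus strand: ccgggccgccCCATAAAAGGcgaaagctcc
Ldb3, CArG box, chr16:9924712-9924741, minus strand: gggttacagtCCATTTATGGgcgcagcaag
Ldb3, AP-1, chr16:9924775-9924801, minus strand: attagctgcgTGAGTCAtggtggaccg
Rab4b, AP-1, chr1:91600516-91600542, minus strand: acgcccctttTGACTCAgcccctctca
The box of Zfp36 begins 32 bases before the annotated start and that of Ldb3 52 bases before it. A match is a run of letters and was not tested for binding.

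The route from matrix to nucleus was described list by list. Beside these lists and those that follow, 9.9% of all genes were higher and 8.87% lower in 3 of 3 pairs. Integrins, focal adhesions and junctions had 6 of 30 genes higher and 2 lower in 3 of 3 pairs (list median 0.02). Itga8, an integrin subunit of mesenchymal cells, read 215 to 261 in controls and 280 to 297 after stretch, with no overlap (change 0.30, SE 0.17, adjusted p = 1). Of 39 genes of the non-muscle cytoskeleton, 6 were higher and 0 lower. Nes, nestin, an intermediate filament protein, was the clearest, with 65.7, 62.8 and 64.5 in controls and 85.3, 88.5 and 77.3 after stretch (change 0.38, SE 0.13, adjusted p = 0.857). Tpm4, a tropomyosin of stress fibres, had a change of 0.24 (SE 0.17).

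MAP kinases and their phosphatases had the largest share in 1 direction among the 24 lists, with 8 of 25 higher (32%) and 3 lower (12%). The shares of all genes were 9.9% and 8.87%, and the list was singled out after the shares were seen. Of the 25, 2 were higher at an unadjusted p under 0.05. None passed the test, and the list median was 0.06. Mapk6 (ERK3) read 312.9, 265.3 and 292 in controls and 315, 350.4 and 397.1 after stretch (change 0.28, SE 0.12, adjusted p = 0.858). Ptpn11, the phosphatase SHP2, had a change of 0.61 (SE 0.24) at low levels, with overlapping groups. Mapkapk3 was higher (0.33) and Mapkapk2, a kinase of the same family and of the EST class, lower (-0.36). The phosphatases Dusp6 and Dusp5 were lower.

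The extracellular matrix was described through 3 lists. Collagens and their processing enzymes had 1 of 22 higher (Col12a1) and 1 lower (Serpinh1), under the share of all genes, and 21 of the 22 had intervals within 2-fold. Matrix glycoproteins and proteoglycans had 2 of 38 higher and 4 lower. Vtn, vitronectin, an adhesion protein made mainly in liver, had the smallest adjusted p of the whole comparison (0.168). Phkg1, a phosphorylase kinase subunit, shared that p with all controls at the floor and 14.4, 17.8 and 13.8 after stretch (change 1.15, SE 0.18), while a brighter probe-set of it was lower in 3 of 3 pairs (-0.49). Vtn read 31.7, 14.8 and 14.9 in controls and 11.4, 9.56 and 6.88 after stretch (change -1.08, SE 0.18), all but control 1 below the level called bright. Zfx, an X-linked zinc-finger factor, shared it as well, with 6.88, 11.5 and 6.88 in controls and 12.6, 15.3 and 23.2 after stretch (change 1.01, SE 0.17). Fibronectin had 5 probe-sets: the brightest had a change of 0.01 (95% interval -0.21 to 0.23), and 1 of the 4 others was higher in 3 of 3 pairs (change 0.79, SE 0.46, adjusted p = 1).

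Tnc, tenascin-C, read 41.6, 33.4 and 66.6 in controls and 24.4, 51.6 and 70.0 after stretch (change -0.02, 95% interval -0.56 to 0.51). Other probe-sets of Tnc had changes of 0.28 and 0.16 with mixed directions. In CM-enriched cultures those changed by 1.28 (adjusted p = 0.852) and 0.44, against -0.08 on the probe-set read here. Bgn, biglycan, had a change of -0.04 (interval -0.30 to 0.22) and Col1a1 of 0.06 (-0.31 to 0.42). A second probe-set of Bgn had -0.13 with mixed directions. Other probe-sets of Col1a1 had 0.13, higher in 3 of 3 pairs, and -0.03 and -0.01. Matrix proteases and inhibitors had 4 of 31 higher, Mmp3 and Timp3 among them, and 2 lower.

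Acta2, the smooth muscle actin of myofibroblasts, read 4819, 4006 and 5042 in controls and 5691, 4380 and 5505 after stretch, higher in 3 of 3 pairs with overlapping groups (change 0.17, interval -0.08 to 0.41, adjusted p = 1). Its other 2 probe-sets had mixed directions. Tagln had a change of 0.01 (interval -0.21 to 0.23). Of 56 growth factors and receptors, 7 were higher and 2 lower, with a median of 0.08. Pdgfrb, the PDGF receptor beta, read 354.2, 252.6 and 465.9 in controls and 488.3, 380.8 and 616.6 after stretch (change 0.49, SE 0.25, adjusted p = 0.974). Tgfb1 had a change of -0.11 (interval -0.63 to 0.42). Fgf2 lay at the floor in control 1, so that its change of 0.70 (SE 0.40) rests on pair 1. Without that pair it was -0.11, while a second probe-set of Fgf2, also low, was higher in 3 of 3 pairs (change 0.67, SE 0.25, adjusted p = 0.857).

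Among 17 transcripts known to answer to mechanical load in other cells, 1 was higher in 3 of 3 pairs (Hmox1, heme oxygenase, change 0.29, SE 0.14, adjusted p = 0.920) and 2 lower (Egr1 and Vegfa). Nppa, Nppb and Ankrd1 had changes of -0.12, -0.17 and -0.05, and their levels followed the myocyte markers, with the highest values in experiment 2. Heat shock proteins and chaperones had 7 of 29 higher and 2 lower, with a median of 0.05. Fkbp4, a co-chaperone of HSP90, led them with Ppib (changes 0.29 and 0.21). Oxidative stress enzymes had 6 of 40 higher and 1 lower.

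Genes of DNA damage, growth arrest and energy supply follow. Of 6 p53 targets 0 were higher and 0 lower in 3 of 3 pairs. Cdkn1a, the cell cycle inhibitor p21, had a change of 0.16 (interval -0.33 to 0.65) and Mdm2 of 0.03 (-0.26 to 0.33). Ddit3, a factor of the endoplasmic reticulum stress response, had -0.09 (-0.41 to 0.23). Mitosis genes had 3 of 17 higher and 0 lower, and DNA replication genes 4 of 29 and 2. Cytosolic ribosomal proteins had 4 of 40 higher and 9 lower, with a list median of -0.00024, and 6 of the 40 are of the EST class. The respiratory chain had 4 of 55 higher and 5 lower, with Ndufb11 (-0.50), of the EST class, opposite to Ndufb2.

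The 8 remaining lists gave no member past the test either. In 3 of 3 pairs, higher and lower, they had 4 and 6 of 54 chemokines, cytokines and inflammatory enzymes, 4 and 4 of 43 vasoactive peptides and receptors, 4 and 1 of 30 glycolysis genes, 3 and 2 of 22 interferon genes, 3 and 2 of 22 sterol and fatty acid genes, 3 and 3 of 20 genes of the integrated stress response, 2 and 2 of 13 smooth muscle and myofibroblast contractile genes, and 1 and 1 of 16 genes of the insulin-like growth factor axis. Over the 24 lists, medians ran from -0.05 to 0.10 and 12 lists had more members higher than lower.

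**Figure D5:**
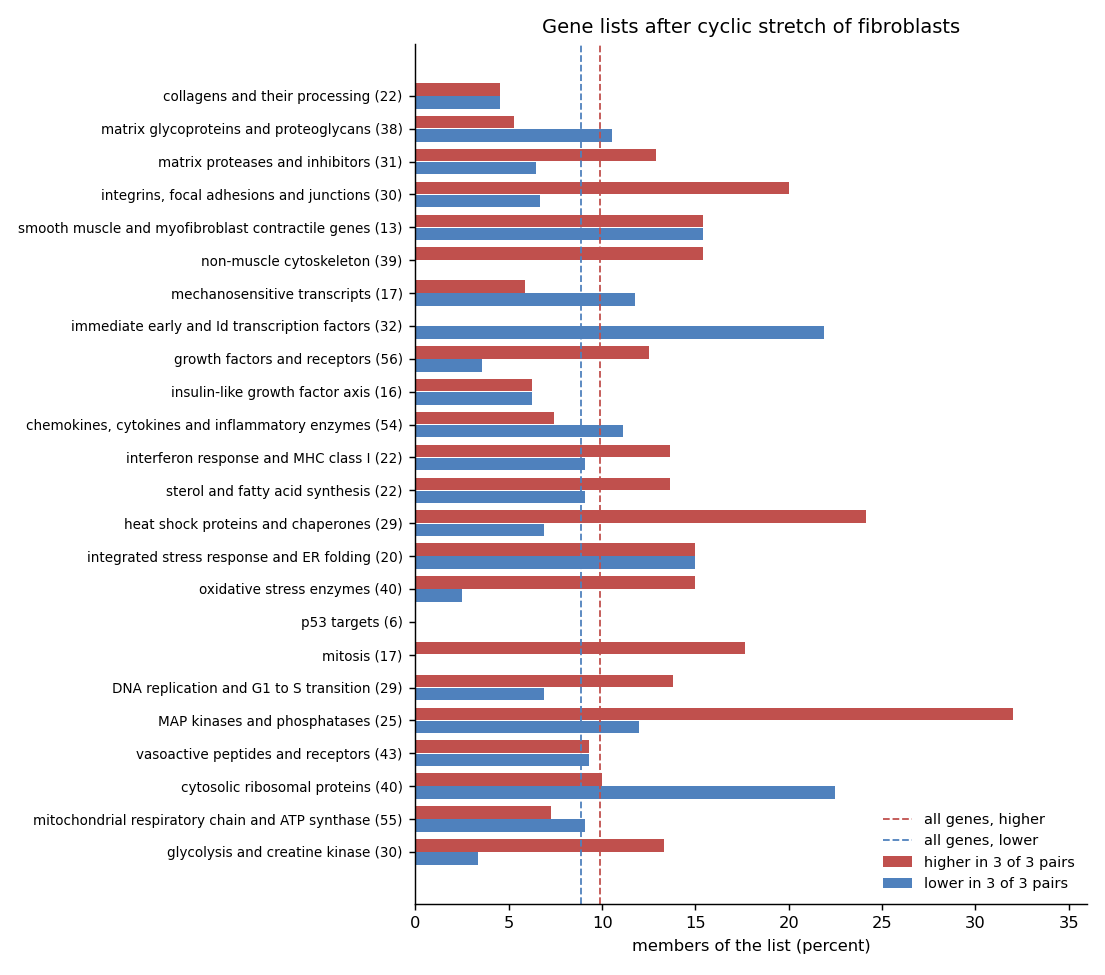
Percent of the members of each of 24 lists (number of genes in brackets) that were higher (red) or lower (blue) in 3 of 3 pairs, with dashed lines at 9.9% and 8.87% for all 4736 genes. MAP kinases have the longest red bar at 32%, and the immediate early genes and p53 targets have no red bar.

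The same stretch was applied to CM-enriched cultures, with controls of their own. These are mixed cultures, so the comparison sets cultures of fibroblasts against cultures with more myocytes, not against myocytes alone. The difference of the changes was tested probe-set by probe-set in the same limma fit, and 0 passed an adjusted p of 0.05 in either direction (0%), with 201 higher and 164 lower at an unadjusted p under 0.05. CM-enriched cultures had 535 genes higher (11.3%) and 554 lower (11.7%) in 3 of 3 pairs. Of these, 62 were higher in both populations, which is 13.2% of the FB genes and 11.6% of the CM genes, and 49 were lower in both, 11.7% and 8.84%.

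X-rays, given to the same kind of culture, were compared in the same way. Against the change after X-rays, 0 probe-sets passed (0%), with 240 higher and 181 lower at an unadjusted p under 0.05 and a smallest adjusted p of 0.107. Cdkn1a had a change of 1.18 after X-rays (SE 0.23, adjusted p = 0.0863), beside 0.16 after stretch, and the difference did not pass (adjusted p = 0.824). For Mdm2 the change after X-rays passed (1.11, SE 0.13, adjusted p = 0.0112), beside 0.03 after stretch, and the difference did not (adjusted p = 0.296).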

How the data were processed

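Transcripts were measured on 35 arrays (RG U34, set A), of which 6 belong to cultures of fibroblasts of the MS experiments. The deposited values are linear intensities, 1 per array for 8799 probe-sets, made by the authors before deposit. The Methods describe a background correction and model on probe signals, which these intensities do not contain. The software that made them is not given in the sources used here, and 0 columns were left out.

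Each array was scaled to a common 75th percentile, with low values set to the 20th percentile of the table (6.88), put on the log2 scale and quantile normalized. Control probe-sets (59) were left out. Symbols were taken from the platform annotation, updated with a table of rat genes (GRCr8): 7006 probe-sets have 1, 308 several and 1426 none, and 6985 were matched by gene number. All arrays entered 1 fit in limma 3.58.1 (R 4.3.3, eBayes with trend; statmod 1.5.0 for a random block) with a block for each numbered experiment of a population and stressor, leaving 11 residual degrees of freedom, two-sided, with Benjamini-Hochberg adjustment. All groups thus share 1 estimate of the spread, and 3 arrays a group limit the precision. A pair with both arrays at the floor counts as no change. Samples were paired by their numbers. Deviations from the group mean correlated at 0.103, 0.411 and 0.401 within pairs, and at most at -0.012 with another number. Such deviations sum to 0 within a group, so the contrast with other numbers is partly built in, and pair 1 was weak. P-values measure the spread of changes between numbered experiments, pooled over all populations and stressors. This spread comes mainly from groups other than the stretched fibroblast pairs. The pipeline was tested on simulated data.

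The genes named are the 12 higher and 12 lower bright probe-sets with 1 symbol, 1 direction in 3 of 3 pairs and the smallest unadjusted p, up to 4 members of a list with the smallest unadjusted p, and 13 genes the study discusses, of which 1 was not found with a single symbol. Other list members are named only as higher or lower in 3 of 3 pairs or as values chosen after they were seen. The members and all 25 gene lists and 8 marker lists were chosen with earlier results of these data known. Of the gene lists 1 is not reported here, which leaves 24. Lists were read through the brightest probe-set of a gene, and no set test was run. Alternatives changed the block, the arrays in the fit, the normalization, the treatment of low values, the variance trend and the pairs used. Those on hybridisation time and the EST class were chosen after seeing the data. Array lots were not recorded for these arrays, so no block for them was run.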

Additional observations from a re-analysis of the deposited data

Results flagged for a closer look

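Of the 12 higher and 12 lower named genes, 8 had all 3 pairs of CM-enriched cultures opposite to the fibroblast pairs. Of all genes, 11.3% were higher and 11.7% lower in 3 of 3 CM-enriched pairs. The difference of the 2 changes (FB minus CM, log2) was tested in limma, and none passed (adjusted p = 1 for all 8). It was 1.69 for Fev (SE 0.39), 0.58 for Rab4b (SE 0.14), 1.14 for Ldb3 (SE 0.33), 1.06 for Slc8a2 (SE 0.26) and 0.33 for Gnas (SE 0.10). It was -0.56 for Mtch2 (SE 0.14), -0.48 for Mrto4 (SE 0.15) and -0.58 for mrpl11 (SE 0.19). These genes had been chosen for 1 direction in fibroblasts, and the opposition holds for the probe-sets chosen. Some opposed CM-enriched pairs were near 0, the smallest being 0.0045 for Mrto4, 0.010 for Mtch2 and 0.029 for mrpl11. Of the other named genes, Vps4a, Hnrnpab, Pafah1b1, Zfp36 and Gstk1 went the same way in all pairs of both populations. The second probe-set of Rab4b was higher in 3 of 3 pairs of both populations (0.54 in FB and 0.43 in CM). Other probe-sets of Ldb3, Gnas and Mtch2 did not have all pairs opposed in this way. Of the 8, Ldb3, Mtch2, Mrto4 and mrpl11 belong to the EST class on which stretched array 2 stood apart, and the part of that array in the differences was not tested.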

How the results depend on the processing

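At an adjusted p of 0.05, counts for stretch stayed at 0 higher and 0 lower with only the MS arrays of both populations in the fit. They also stayed at 0 with scaling alone, a pseudocount of 16 or a higher floor. The same held with dim probe-sets left out, no variance trend and the EST class left out. The fibroblast MS arrays were not fitted by themselves. Without the replicate block, which the pairing supplies, and with a random block 1 probe-set was higher (Zfx, at low level) and 0 lower. With 1 pair left out, 2 to 4 were higher and 1 to 3 lower, none of them bright. The spread is then taken even more from other groups than in the main fit, where it also comes mainly from them. The settings on hybridisation time, both chosen after seeing the data, gave the most calls. As a block in place of the experiment, which sets all 3 stretched arrays against control 3 alone, it gave 7 higher and 20 lower, 3 of these 27 bright. With only pair 3, whose arrays share a time, 21 were higher and 18 lower, 2 of these 39 bright. Neither has a replicate of the control within that time. Against CM-enriched cultures these settings gave 2 and 14, then 20 and 13, and with 1 pair left out 1 higher and 0 to 1 lower. Against X-rays they gave 2 and 16, then 21 and 18, with 1 pair left out 1 to 3 higher and 0 to 3 lower, and a higher floor gave 1 higher (Adora2b), a pseudocount and the dim filter 1 lower each (Ephx1). The replicate block changed no other call. Scan or array lot as a block was not run, since no lot is recorded for these arrays.

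The unadjusted counts of 248 and 220 became 71 and 107 with dim probe-sets left out, 151 and 167 with a higher floor, 153 and 132 without the block, 253 and 133 with scaling alone and 217 and 140 without the EST class. Of 493 values of named probe-sets under 14 alternatives, 474 kept direction and side of the threshold, and Ergic1 passed with hybridisation time as a block (1.07, adjusted p = 0.0327; range over alternatives 0.0327 to 1). The 18 reversals concern Bgn, Cdkn1a, Col1a1, Fgf2, Fn1, Mdm2, Nppa, Tgfb1, Tnc and Uck2, and the cause was not tested. Much of the agreement in the 474 was fixed in advance, so that count is no support for the directions. For genes chosen for 1 direction in 3 of 3 pairs, leaving out a pair could not reverse the change. Dropping the experiment block, a random block, no variance trend and probe-sets left out do not alter the change of a probe-set. Bgn was 0.049 with scaling alone and 0.025 with the hybridisation block. Under that block Cdkn1a was -0.24, Mdm2 -0.13, Nppa 0.70 and Uck2 -0.14. With pair 3 alone Cdkn1a was -0.20 and Tnc 0.072. Tnc was also 0.029 with scaling alone and 0.000215 with the pseudocount. With 1 pair left out in turn, changes ran from -0.091 to 0.34 for Cdkn1a, -0.062 to 0.17 for Col1a1, -0.11 to 1.19 for Fgf2, -0.020 to 0.046 for Fn1, -0.049 to 0.099 for Mdm2, -0.38 to 0.055 for Tgfb1 and -0.35 to 0.35 for Tnc. Of 459 list medians 58 moved by more than the SD of the pair medians.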
